A study of Mus musculus with 10 samples.

Results

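The genes described here were 35 photoreceptor genes of the mouse, mostly parts of the rod and cone light response, out of 47729 genes in the table. They were taken from a list of symbols matched to their Ensembl identifiers, and each symbol was found. By their known use, 10 were counted as rod genes, 10 as cone genes and 15 as genes of both cell types or of wider use. Their RNA was measured in a preparation of retinal pigment epithelium (RPE), the pigmented layer behind the retina, from which the neural retina had been taken off by dissection, so that their reads measure the photoreceptor RNA left in each eyecup together with any expression of the same genes in other cells. The libraries came from 5 wild-type CD1 mice at postnatal day 40, with 1 library from each eye.

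In each mouse the Nrf2 eye had received AAV Best1 Nrf2 together with AAV Best1 GFP, and the GFP control eye of the same animal AAV Best1 GFP only. AAV, adeno-associated virus, served as the gene carrier, Nrf2 (gene Nfe2l2) is a transcription factor of the antioxidant response, supplied as the human coding sequence, and the Best1 promoter drives expression in RPE cells. Delivery was by subretinal injection, which by its route passes between photoreceptors and RPE. The Nrf2 eyes thus carried an additional vector, no eye here carried an equal amount of another vector, and transgene and injection load cannot be told apart. Library totals ran from 12298404 to 27310638 counts. Counts assigned to the mouse Nfe2l2 gene stood at 79.3 to 109.6 CPM (a gene's counts scaled to the library total) in the control eyes and at 267 to 414 CPM in the Nrf2 eyes. RPE markers such as Rpe65 and Rgr were abundant in every library. Rpe65 stood at 2781 to 4519 CPM in control eyes and 198 to 1080 CPM in Nrf2 eyes, without overlap. Rgr stood at 6259 to 12388 CPM and 548 to 2629 CPM, also without overlap. Mitf (32.7 to 67.9 CPM) and Mertk (35.5 to 151 CPM) were less abundant, and Best1 itself was low, at 0.119 to 1.503 CPM. The 12 RPE markers together were lower in the Nrf2 eye of 5 of 5 mice, at 33271 ± 10479 CPM (SD, n = 5) for control eyes against 17279 ± 7861 CPM for Nrf2 eyes. By gene, 9 of the 12 were lower in all 5 mice against 10.9% of all genes tested, and 8 passed the test as lower, against 2.73%, while Mitf was higher in the Nrf2 eye of 1 mouse, Ttr of 3 and Best1 of 4, and none of the 12 passed as higher.

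In rods and cones, light absorbed by an opsin activates transducin, a G protein with an alpha, a beta and a gamma subunit. Transducin releases the inhibition of the phosphodiesterase PDE6, cyclic GMP falls and the cyclic nucleotide-gated channels close. Arrestin ends the opsin signal, and guanylate cyclases with their calcium-binding activators restore cyclic GMP. Rods and cones use different gene copies for most of these steps, which allows their RNA to be counted separately.

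The promoters were searched for 2 elements known from photoreceptor genes. CRX, the photoreceptor homeodomain factor encoded by Crx, binds sites with the core TAATCC. Promoter sequences from RefSeq (build GRCm38.p6, 250 bases before to 50 after the gene start) were at hand for 25 of the 35 genes. The letters TAATCC, searched on both strands (GGATTA on the other strand), stood in 12 of these 25 promoters, against 8.14% of the promoters of all 27025 genes. The 12 genes were Abca4, Aipl1, Cnga1, Cngb1, Crx, Gnat2, Gngt1, Guca1a, Gucy2e, Gucy2f, Sag and Unc119. Among 37 other photoreceptor genes, 10 of the 26 with a promoter sequence held it. A match is a description of letters and not a measured binding site. The letters TGCTGAC, searched likewise on both strands and part of the element bound by the rod factor NRL, stood in 2 of the 25 promoters, those of Opn1sw and Pde6b, against 5.28% of all genes, and neither gene was among the 12. The bases before the start of 4 genes are shown because these genes recur in the results: the rod genes Sag and Gngt1, whose levels spanned the libraries together, Crx itself, and the cone gene Gnat2, the largest part of the cone counts in several libraries. Each is written 5′ to 3′ on the strand of the gene, with the match in capitals.
Sag (chr1:87803430-87803679, plus strand): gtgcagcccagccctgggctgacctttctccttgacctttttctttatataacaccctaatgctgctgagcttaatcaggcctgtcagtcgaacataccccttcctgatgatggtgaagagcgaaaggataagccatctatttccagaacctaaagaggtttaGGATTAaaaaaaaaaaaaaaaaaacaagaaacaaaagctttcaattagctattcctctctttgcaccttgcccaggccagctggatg
Gngt1 (chr6:3993758-3994007, plus strand): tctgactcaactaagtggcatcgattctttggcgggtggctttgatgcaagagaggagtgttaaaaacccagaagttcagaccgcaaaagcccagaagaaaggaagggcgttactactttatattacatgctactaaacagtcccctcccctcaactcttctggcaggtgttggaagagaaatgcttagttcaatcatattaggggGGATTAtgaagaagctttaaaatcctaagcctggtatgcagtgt
Crx (chr7:15879956-15880205, minus strand): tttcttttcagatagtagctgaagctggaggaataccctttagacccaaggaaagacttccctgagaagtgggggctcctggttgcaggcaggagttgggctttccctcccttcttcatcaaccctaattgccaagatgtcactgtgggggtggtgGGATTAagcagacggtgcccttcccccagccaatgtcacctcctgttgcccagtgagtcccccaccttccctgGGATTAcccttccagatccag
Gnat2 (chr3:108092816-108093065, plus strand): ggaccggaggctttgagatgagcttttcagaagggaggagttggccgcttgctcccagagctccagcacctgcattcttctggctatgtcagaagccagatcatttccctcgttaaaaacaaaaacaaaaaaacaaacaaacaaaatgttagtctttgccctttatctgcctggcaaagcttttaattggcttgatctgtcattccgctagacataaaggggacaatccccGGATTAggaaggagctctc
The match began 87 bases before the start of Sag, 44 before that of Gngt1 and 19 before that of Gnat2, and Crx held 2 matches, 94 and 21 bases before its start. These are RefSeq starts, which differ in part from those of the GENCODE annotation used for exon lengths. There Gnat2 starts at 108092789 and Gngt1 at 3993792. The Gnat2 stretch, most of the Gngt1 stretch and the last bases of the Crx stretch thus lie inside the GENCODE genes.

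To find how much rod RNA each library held, the CPM of the 10 rod genes were summed. The summed rod level was 28.2, 11693, 133, 1779 and 272 CPM in the control eyes of mice 1 to 5 and 52.4, 4997, 80.8, 48.8 and 293 CPM in their Nrf2 eyes. The highest library, the control eye of mouse 2, was 415-fold above the lowest, the control eye of mouse 1. Both eyes of mouse 2 and the control eye of mouse 4 were the 3 highest libraries, and the other 7 lay between 28.2 and 293 CPM. In the control eye of mouse 2, rod genes took 1.17% of all counts (exact 95% interval 1.16 to 1.17%, counting error only), in its Nrf2 eye 0.4997%, and in the control eye of mouse 1 0.00282%. All 35 genes together made up 2.29% of the counts of the control eye of mouse 2, 1.03% of its Nrf2 eye, 0.498% of the control eye of mouse 4 and 0.134 to 0.168% of the other 7 libraries. In these bulk samples, fewer cells of a type and less RNA per cell cannot be told apart.

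The eyes of a mouse did not differ in 1 direction. The Nrf2 eye held more rod RNA than the control eye in mice 1 and 5, by 1.86-fold and 1.08-fold, and less in mice 2, 3 and 4, where the control eye was higher by 2.34-fold, 1.65-fold and 36.5-fold. The mean within-mouse log2 difference of the rod sum, Nrf2 minus control, was -1.23 with a standard error (SE) of 1.05 (n = 5). Control eyes averaged 2781 ± 5033 CPM (SD, n = 5) and Nrf2 eyes 1094 ± 2184 CPM, with medians of 272 and 80.8 CPM, and the groups overlapped over most of their range. The difference between groups was therefore smaller than the spread between eyes of 1 group, and mouse 4 had by far the widest gap between its eyes.

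**Figure D1:**
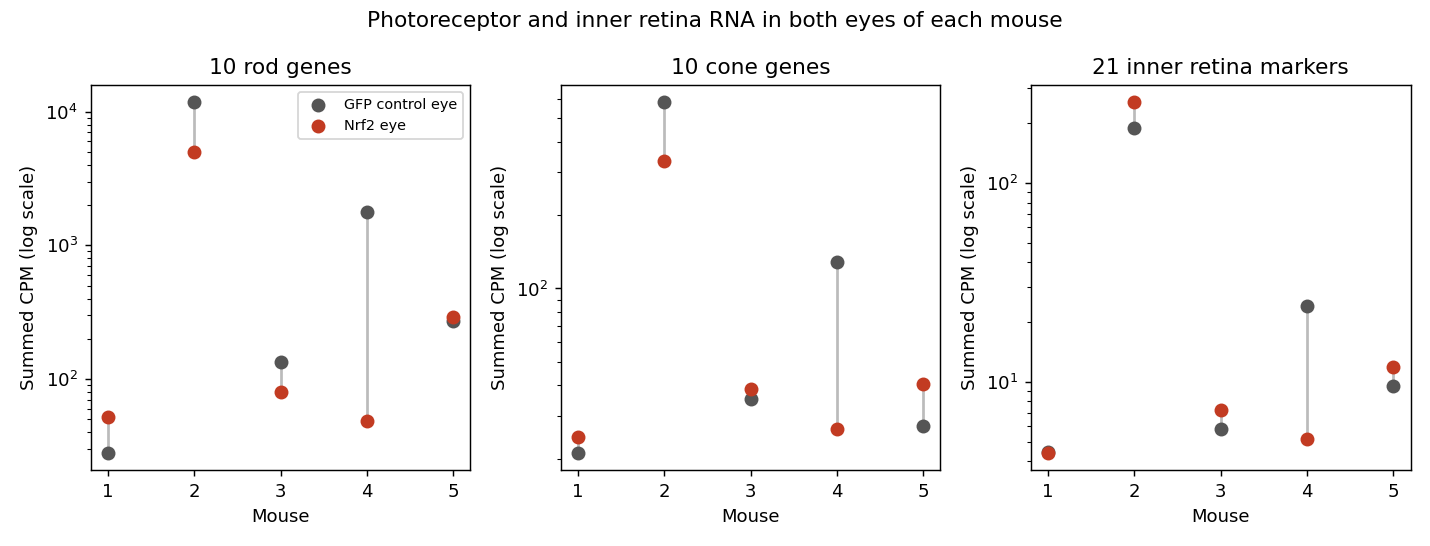
Summed CPM (log scales that differ between panels) of 10 rod genes, 10 cone genes and 21 inner retina markers in the GFP control eye (grey) and the Nrf2 eye (red) of each of 5 mice, with 1 point per library and a line joining the eyes of a mouse. Both eyes of mouse 2 lie highest in every panel, and mouse 4 has the widest gap between its eyes.

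The rod genes kept nearly the same order whatever their amount. Gnat1, the alpha subunit of rod transducin, made up 30.7 to 40.6% of the rod counts in every library, and Sag, the rod arrestin, 21.3 to 40.7%. Pde6g, the inhibitory subunit of rod PDE6, took 8 to 12.1%, Gngt1, the gamma subunit of rod transducin, 5.61 to 10.2%, and Pde6b, a catalytic subunit of PDE6, 4.50 to 8.32%. Over the 10 rod genes, the log2 profile of each other library had a Pearson's r of 0.872 to 0.999 with that of the control eye of mouse 2. These are genes of 1 library and not independent points, and in the library with the least rod RNA the 10 genes gave 553 counts. The control eye of mouse 1 departed most: Cngb1, the beta subunit of the rod channel, took 15.7% of its rod counts against 1.52 to 2.83% in the other libraries.

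Gnat1 stood at 8.67, 4464, 48.0, 657 and 110.2 CPM in the control eyes of mice 1 to 5 and at 18.5, 1634, 26.4, 19.1 and 102 CPM in the Nrf2 eyes. The eyes of mouse 5 were nearly level, those of mouse 4 far apart, and the groups overlapped. Its fitted log2 fold change, Nrf2 minus control, was -1.09 (adjusted p = 0.577, edgeR with the mouse as a block). The within-mouse log2 differences had an SE of 1.06, and the SE beside other fold changes is meant likewise. Leaving out 1 mouse at a time gave -1.66 (without mouse 1) to -0.34 (without mouse 4) and no call.

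Sag was at 6.02, 3909, 46.2, 569 and 79.4 CPM in control eyes and 18.1, 2033, 27.2, 14.7 and 89.6 CPM in Nrf2 eyes, with the same 3 libraries highest. In mouse 1 the Nrf2 eye was the higher one, in mouse 4 by far the lower. Its log2 fold change was -0.80 (adjusted p = 0.742, SE 1.16), and became -1.40 when mouse 1 was left out and -0.015 when mouse 4 was.

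Among the other rod genes, Gngt1 ran from 1.73 to 702 CPM, Pde6b from 2.20 to 847 CPM and Pde6g from 2.60 to 1126 CPM. Pde6a, the second catalytic subunit of rod PDE6, reached only 101 CPM. The enzyme holds both subunits, and per kilobase of exon Pde6b over Pde6a was 3.06, 7.82, 3.54, 8.42 and 5.87 in control eyes and 4.49, 5.51, 1.95, 2.52 and 3.79 in Nrf2 eyes. In the eyes of mouse 2, with the most counts, the 95% counting intervals were 7.43 to 8.24 and 5.19 to 5.85. The Nrf2 eye had the lower ratio in mice 2 to 5 and the higher one in mouse 1. Cnga1, the alpha subunit of the rod channel, was at 0.867, 142, 3.28, 23.1 and 2.67 CPM in control eyes and 1.05, 59.9, 1.47, 0.569 and 1.76 CPM in Nrf2 eyes. Of the transcription factors of rod identity, Nr2e3, a nuclear receptor that represses cone genes in rods, ran from 0.510 to 170.2 CPM, and Nrl, the leucine zipper factor that directs precursors to the rod fate, was at 0.306, 32.3, 0, 5.32 and 0.549 CPM in control eyes and 0.0455, 9.23, 0.188, 0.0813 and 1.58 CPM in Nrf2 eyes. Where Nrl had no count, in the control eye of mouse 3, the floor of 3 counts allows up to 0.209 CPM. With so few counts Nrl did not pass the filter for the test.

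The cone genes as a sum varied less than the rod genes, though some varied as widely. The summed level of the 10 cone genes was 21.2, 580.1, 35.3, 128 and 27.2 CPM in control eyes and 24.6, 334, 38.7, 26.5 and 40.4 CPM in Nrf2 eyes, a 27.4-fold range over the libraries against 415-fold for the rod genes. Control eyes averaged 158 ± 240 CPM (SD, n = 5) and Nrf2 eyes 92.9 ± 135 CPM, the Nrf2 eye was the higher one in 3 of 5 mice, and the mean log2 difference was -0.43 (SE 0.51). The same 3 libraries stood highest. The sum mixes unlike genes: Opn1sw alone spanned 364-fold, while Gnat2, up to 60.9% of the cone counts, spanned 5.75-fold.

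Opn1sw, the short-wavelength cone opsin, was at 2.09, 266, 3.70, 53.7 and 4.76 CPM in control eyes and 0.865, 42.6, 3.05, 0.732 and 1.70 CPM in Nrf2 eyes. It was lower in the Nrf2 eye of 5 of 5 mice, with a log2 fold change of -2.26 (adjusted p = 0.153, SE 1.01), which did not pass the threshold of 0.05. Its exons overlap those of Calu, a gene of the opposite strand, by 397 bases, and Calu stood at 198 to 308 CPM in all 10 libraries, with a log2 fold change of -0.10.

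Opn1mw, the medium-wavelength cone opsin, had 0, 39.2, 0.349, 3.82 and 0.330 CPM in control eyes and 0.364, 12.7, 0.752, 0.0813 and 1.21 CPM in Nrf2 eyes. The Nrf2 eye was the higher one in 3 of 5 mice, and outside the eyes of mouse 2 and the control eye of mouse 4 its level was at most 1.21 CPM. It had no count in the control eye of mouse 1, where the floor of 3 counts allows up to 0.153 CPM. Per kilobase, Opn1sw exceeded Opn1mw 4.15-fold in the control eye of mouse 2 (95% counting interval 3.82 to 4.52), 2.05-fold in its Nrf2 eye (1.80 to 2.33) and 8.58-fold in the control eye of mouse 4 (6.65 to 11.2). For the control eyes of mice 3 and 5 it was 6.48 (2.61 to 20.8) and 8.82 (4.51 to 19.7), and for the Nrf2 eyes of mice 1, 3 and 5 1.45 (0.606 to 3.83), 2.47 (1.502 to 4.26) and 0.855 (0.465 to 1.60). The ratio was lower in the Nrf2 eye of all 3 mice that had a value for both eyes, and the control values lay above the Nrf2 values without overlap. With 3 pairs an exact two-sided sign-flip test cannot go below p = 0.25, and the other two mice had too few Opn1mw counts in 1 eye for a ratio.

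Arr3, the cone arrestin, was at 0.153, 62.8, 0.279, 8.84 and 1.90 CPM in control eyes and 0.273, 15.2, 0.752, 0.325 and 1.40 CPM in Nrf2 eyes. Outside the eyes of mouse 2 and the control eye of mouse 4 it was at most 1.90 CPM. Pde6h, the inhibitory subunit of cone PDE6, was at 0.153, 59.6, 3.70, 15.5 and 0.879 CPM in control eyes and 0.273, 19.3, 1.39, 1.63 and 0.121 CPM in Nrf2 eyes, lower in the Nrf2 eye of 4 of 5 mice, with a log2 fold change of -1.86 (adjusted p = 0.0719, SE 0.63). Of 14 alternatives 3 called it, DESeq2 (adjusted p = 0.00125), the fit without mouse 1 (0.0248) and that with no filter on low counts (0.0276), and its adjusted p reached 0.754 in the others. It shares 136 exonic bases with Arhgdib, which stood at 163 to 303 CPM and whose log2 fold change was 0.24.

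Gnat2, the alpha subunit of cone transducin, was at 12.3, 55.0, 21.5, 25.9 and 11.5 CPM in control eyes and 9.56, 19.6, 17.1, 12.4 and 10.6 CPM in Nrf2 eyes. Its control and Nrf2 ranges overlapped. It was lower in the Nrf2 eye of 5 of 5 mice, with a log2 fold change of -0.69 (adjusted p = 0.145, SE 0.26). It accounted for 58.1% of the cone counts in the control eye of mouse 1 and 60.9% in that of mouse 3, but for 9.48% and 5.87% in the control and Nrf2 eyes of mouse 2.

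Pde6c, Cngb3 and Cnga3 were low in every library. Pde6c, the catalytic subunit of cone PDE6, ran from 0.488 to 4.06 CPM, Cngb3, the beta subunit of the cone channel, from 0.714 to 6.53 CPM, and Cnga3, its alpha subunit, from 0.121 to 1.73 CPM. Cnga3 lay near the floor of 0.110 to 0.244 CPM in several libraries and did not pass the filter for the test.

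Gnb3 and Gngt2, the beta and gamma subunits of cone transducin, leaned the other way. Gnb3 was at 3.06, 74.4, 1.40, 10.2 and 2.20 CPM in control eyes and 8.74, 212, 10.5, 6.26 and 17.9 CPM in Nrf2 eyes, higher in the Nrf2 eye of 4 of 5 mice, with a log2 fold change of 1.62 (adjusted p = 0.140, SE 0.66). Of 14 alternatives 3 called it: DESeq2 (1.68, adjusted p = 0.00179), the fit without mouse 4 (2.20, adjusted p = 0.0213) and, chosen after seeing the data, the rod sum of the library as a covariate (2.24, adjusted p = 0.0393). Its adjusted p reached 0.702 without the replicate block. Gnb3 is also used by ON bipolar cells, and the part of bipolar cells in its counts was not tested. The 9 bipolar markers with a median of at most 2 CPM (Grm6, Pcp2, Cabp5, Vsx1, Isl1, Gng13, Scgn, Lrtm1 and Nyx, not all of them ON cell genes), grouped after seeing the data, summed to 3.47, 112, 4.26, 16.2 and 6.005 CPM in control eyes and 3.83, 169.7, 5.19, 4.07 and 6.80 CPM in Nrf2 eyes. Gngt2 was at 1.02, 11.03, 0.419, 3.40 and 0.586 CPM in control eyes and 2.14, 5.57, 1.92, 2.68 and 4.86 CPM in Nrf2 eyes, higher in 3 of 5 mice, with a log2 fold change of 0.87 (adjusted p = 0.564, SE 0.70). Its exons share 234 bases with Abi3, a gene of macrophages and microglia, which passed the test with a log2 fold change of 2.39 (adjusted p = 0.0237, SE 0.48) and was higher in the Nrf2 eye of 5 of 5 mice. The 13 macrophage and microglia markers summed to 307 to 393 CPM in control eyes and to 562 to 2332 CPM in Nrf2 eyes, without overlap. The part of these cells in the Gngt2 counts was not tested.

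**Figure D2:**
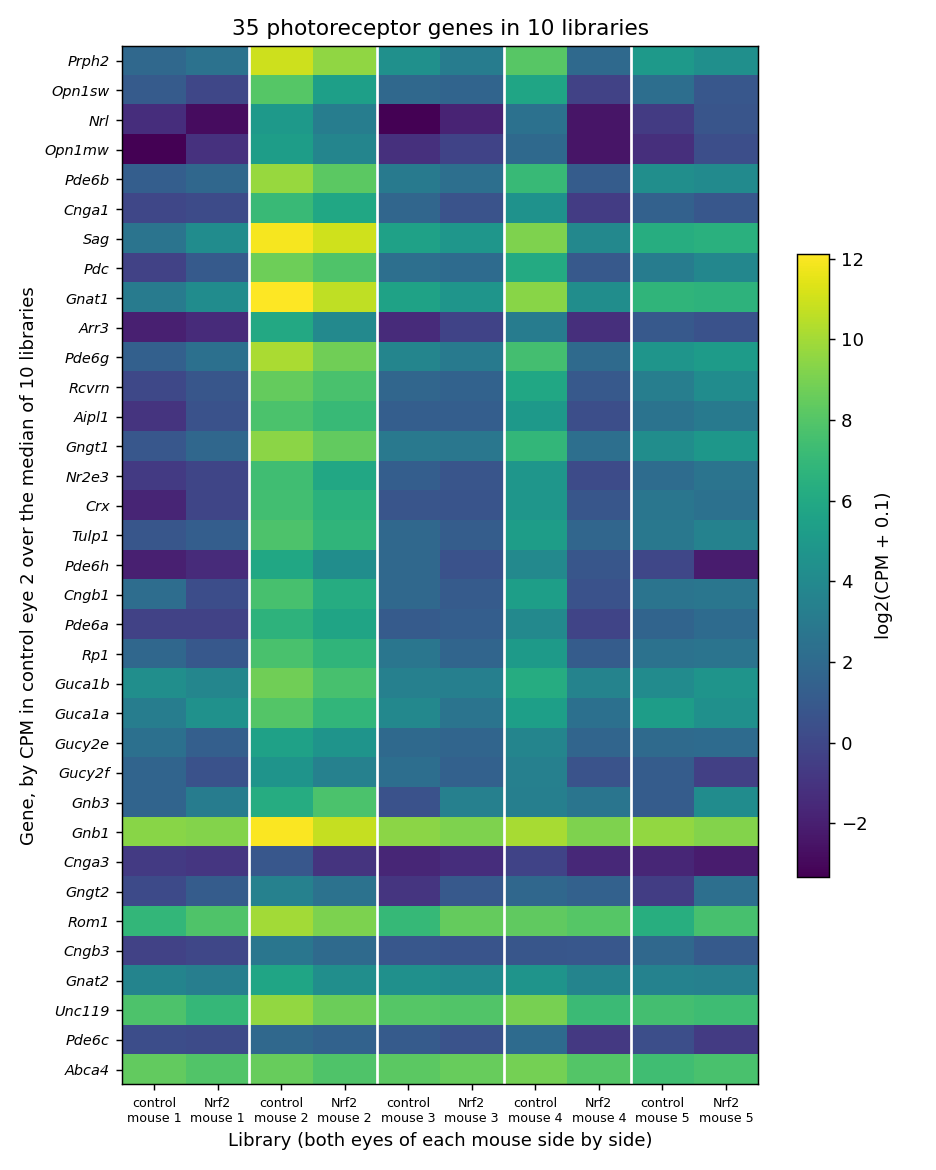
The level of each of the 35 genes as log2(CPM + 0.1), by colour, in the control and Nrf2 library of each mouse, with genes ordered from top to bottom by CPM in the control eye of mouse 2 over the median of the 10 libraries. That ratio falls from 93.6 for Prph2 to 1.33 for Abca4, and the genes at the foot of the plot have nearly even colours across libraries.

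The proportion of rod to cone RNA was computed as the summed counts per kilobase of the rod genes over the same for the cone genes. With all 10 cone genes it was 0.892, 13.2, 2.85, 9.74 and 7.53 in control eyes and 1.41, 9.22, 1.42, 1.33 and 4.78 in Nrf2 eyes. The ratio was high where the rod sum was high and close to 1 in the libraries with the least rod RNA. In the control eye of mouse 1 and the Nrf2 eyes of mice 4 and 1, Gnat2 made up 58.1, 46.6 and 38.9% of the cone counts. Arr3 had 3, 4 and 6 counts there. The ratio in these libraries thus depends strongly on Gnat2 and is not a proportion of cells. Control eyes averaged 6.84 ± 5.01 (SD, n = 5) and Nrf2 eyes 3.63 ± 3.45, the ratio was lower in the Nrf2 eye of 4 of 5 mice, and the mean log2 difference was -0.88 (SE 0.57).

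These proportions depended on which cone genes were counted. Without Gngt2 and Gnb3 the ratios were 1.16, 15.6, 3.05, 11.1 and 8.60 in control eyes and 2.78, 27.5, 2.22, 2.27 and 12 in Nrf2 eyes, and the mean log2 difference was -0.04 (SE 0.63). When Gnat2 was left out as well, a choice made after seeing the data, they were 4.18, 17.3, 9.57, 14.2 and 16.4 and 9.25, 32.5, 6.39, 9.62 and 27.7, with a mean log2 difference of 0.33 (SE 0.38). Over the libraries the ratio spanned 14.8-fold with all cone genes, 23.7-fold without Gngt2 and Gnb3 and 7.78-fold when Gnat2 was left out too. The direction between the eyes thus changed with the cone genes used, and in no version was the mean difference 2 SE from 0.

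Matching rod and cone genes were also compared in pairs. Gnat1 over Gnat2, per kilobase, was 0.697, 80.2, 2.21, 25.1 and 9.51 in control eyes and 1.92, 82.4, 1.52, 1.53 and 9.54 in Nrf2 eyes, so it was nearly equal in the eyes of mouse 2 and in the eyes of mouse 5. Sag over Arr3, with the 95% counting interval, was 16.5 (15.5 to 17.5) in the control eye of mouse 2, 43.7 (16.99 to 161) in that of mouse 3, 17.02 (14.5 to 20.2) in that of mouse 4 and 11.03 (8.38 to 14.8) in that of mouse 5. In the Nrf2 eyes of mice 1 to 5 it was 17.5 (7.97 to 48.0), 35.4 (31.9 to 39.2), 9.55 (6.14 to 15.7), 11.97 (4.59 to 44.4) and 16.97 (11.3 to 26.9). The control eye of mouse 1 had too few Arr3 counts for a ratio. These intervals reflect counting alone, because reads of an amplified library do not each stand for a separate molecule.

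**Figure D3:**
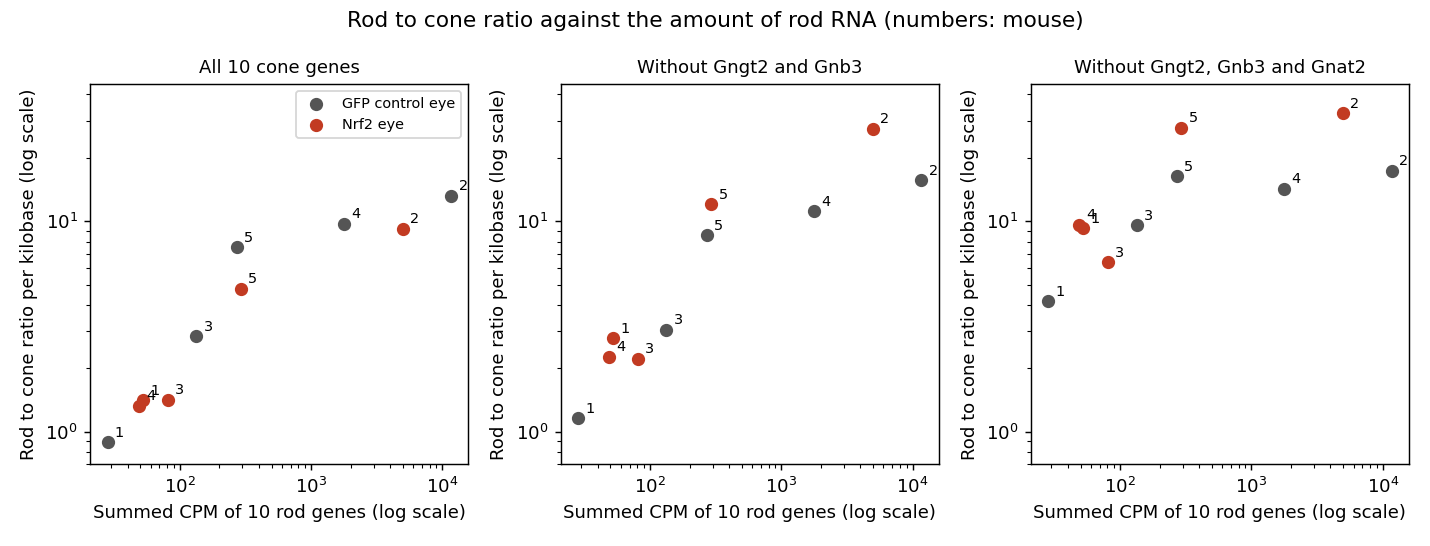
Rod to cone ratio per kilobase (log scale) against the summed CPM of the 10 rod genes (log scale) in the 10 libraries, numbered by mouse and coloured by eye, with all cone genes, without Gngt2 and Gnb3, and without these and Gnat2. With all cone genes the ratios run from 0.892 to 13.2, and without the 3 genes from 4.18 to 32.5. The axes share the rod counts, so the plot is a description and no correlation is given.

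Inner retina RNA was examined to see whether photoreceptor RNA came alone. Of 34 listed markers of bipolar, amacrine, horizontal and ganglion cells, several such as Trpm1 (median 561 CPM) and Slc6a9 (360 CPM) were abundant in every library, so the 21 with a median of at most 2 CPM were summed, a choice made after seeing the data. Their sum was 4.44, 189, 5.80, 24.1 and 9.52 CPM in control eyes and 4.42, 255, 7.22, 5.20 and 11.96 CPM in Nrf2 eyes. Both eyes of mouse 2 were highest, with no marker at 0, while 4 to 9 of the 21 were at 0 in the 7 libraries with the least rod RNA. Per 100 rod counts the inner markers gave 15.7, 1.62, 4.35, 1.35 and 3.51 counts in control eyes and 8.43, 5.10, 8.94, 10.7 and 4.08 in Nrf2 eyes, more in the Nrf2 eye of mice 2 to 5 and less in that of mouse 1. In mouse 2 the exact 95% intervals were 1.56 to 1.68 and 4.98 to 5.23. The Nrf2 eye of mouse 2 thus held less rod RNA but more inner retina RNA than the other eye of that mouse, and it also had the highest Gnb3, at 212 CPM. All 34 markers summed to 881 to 1809.7 CPM over the libraries.

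The 15 genes of both cell types or of wider use spanned very different ranges. Prph2, a disc rim protein, was at 3.62, 1972, 21.4, 279 and 32.3 CPM in control eyes and 5.51, 749, 8.99, 3.74 and 20.7 CPM in Nrf2 eyes, and its level in the control eye of mouse 2 was 93.6 times the median of all libraries, the highest such ratio of the 35 genes. Pdc, the transducin-binding phosducin, ran from 0.714 to 422 CPM and Rcvrn, the calcium sensor recoverin, from 0.918 to 348 CPM. Crx, whose promoter is shown above, was at 0.204, 176, 1.61, 27.1 and 6.52 CPM in control eyes and 0.820, 94.2, 1.504, 1.63 and 5.40 CPM in Nrf2 eyes, the control eye of mouse 1 being lowest and close to its floor. Rp1, a microtubule protein of the outer segment, Aipl1, a chaperone of PDE6, and Tulp1, a transport protein of photoreceptors, spanned 1.82 to 203, 0.408 to 215 and 1.68 to 221 CPM.

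Abca4, Rom1, Gnb1 and Unc119 stayed high where rod RNA was scarce, and their highest library was 2.82 to 12.1-fold above their lowest. Abca4, the transporter that clears retinal from discs and is also known from the RPE, was at 338, 372, 306, 480.0 and 170.3 CPM in control eyes and 248.5, 235, 376, 252 and 206 CPM in Nrf2 eyes, with the control eye of mouse 4 and not that of mouse 2 highest. Rom1, the partner of Prph2 in the disc rim, was at 120.3, 1004, 130.2, 327 and 83.3 CPM in control eyes and 239, 540.4, 349, 269.5 and 199 CPM in Nrf2 eyes. The Nrf2 eye held more Rom1 in mice 1, 3 and 5 and less in mice 2 and 4, and its log2 fold change was 0.50 (adjusted p = 0.572, SE 0.47). The fit without mice 2 and 4, chosen after seeing the data, gave 1.22 (adjusted p = 0.0462), but it leaves only the 3 mice in which the Nrf2 eye was higher, so its direction was set by that choice. Leaving out 1 mouse at a time gave 0.31 to 0.88 and no call.

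Gnb1, the beta subunit of rod transducin and a beta subunit of many cells, was at 672, 4189, 682, 1095 and 791 CPM in control eyes and 609, 1769, 552, 562 and 622 CPM in Nrf2 eyes. It was lower in the Nrf2 eye of 5 of 5 mice, with a log2 fold change of -0.61 (adjusted p = 0.143, SE 0.23). Unc119, a carrier of lipid-bearing transducin, was at 225, 777, 271, 490.1 and 183 CPM in control eyes and 126, 397, 239, 147 and 162 CPM in Nrf2 eyes, also lower in 5 of 5 mice, at -0.79 (adjusted p = 0.118, SE 0.29). Gnb1, Unc119, Rom1 and Abca4 made up most of the 1269 to 10674 CPM of the 15 genes, whose sum ranged only 8.41-fold.

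The genes that restore cyclic GMP gave the only call. Gucy2f, a retinal guanylate cyclase, was at 3.01, 25.7, 4.68, 10.6 and 2.12 CPM in control eyes and 1.37, 10.98, 2.67, 1.46 and 0.668 CPM in Nrf2 eyes. In every mouse the Nrf2 eye was the lower one, though the groups overlapped. Its log2 fold change was -1.51 (adjusted p = 0.0425, SE 0.36), just past the threshold of 0.05. The call was lost without any 1 of the 5 mice (adjusted p = 0.0588 to 0.145) and with the rod sum as a covariate (-1.14, adjusted p = 0.118). Over all 14 alternatives its adjusted p ran from 0.000386 to 0.499, and 5 of them called it. The summed RPE markers were lower in the same 5 Nrf2 eyes, and their part in this result was not tested.

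Gucy2e, the other retinal guanylate cyclase, was at 5.15, 44.9, 3.77, 13.1 and 3.99 CPM in control eyes and 2.46, 25.3, 3.12, 3.25 and 4.13 CPM in Nrf2 eyes, with a log2 fold change of -0.83 (adjusted p = 0.181, SE 0.35). The activators of these cyclases, Guca1a and Guca1b, ran from 5.12 to 258 CPM and from 9.85 to 446 CPM, at -1.04 (SE 0.71) and -0.80 (SE 0.55), and neither passed the test.

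Across the whole set, 33 of the 35 genes could be tested, and 1 of the 33, 3.03%, was called, against 6.33% of all 16362 genes tested. That call was of a lower level, which 2.73% of all genes had. None of the 9 rod genes and none of the 9 cone genes tested passed in edgeR. At an unadjusted p under 0.05 there were 10 of 33, of which 1 was a rod gene and 4 were cone genes, against 19.1% of all genes, and DESeq2, which called 9.25% of 19592 genes, called 6 of the 35 (Pde6h, Gnb3, Gnb1, Gucy2f, Rp1 and Unc119). The fitted log2 fold change was negative for 30 of the 33 and positive for Gnb3, Gngt2 and Rom1, with a median of -0.81 against -0.01 over all genes. Without mouse 4, where most rod genes had their lowest ratio, 26 of 34 genes were negative and the median was -0.36. Without mice 2 and 4, a choice made after seeing the data, 16 of 32 were negative and the median was -0.01. These mice had the largest falls of the rod sum (log2 -1.23 and -5.19). In the mice left, the rod sum was higher in the Nrf2 eye of mice 1 and 5 and lower in that of mouse 3. The shift of the median thus follows in part from that choice. The median SE was 0.83, against 0.18 for all genes, so the photoreceptor genes were measured with far wider error between mice than most genes here, and the missing calls do not show that the eyes were alike.

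**Figure D4:**
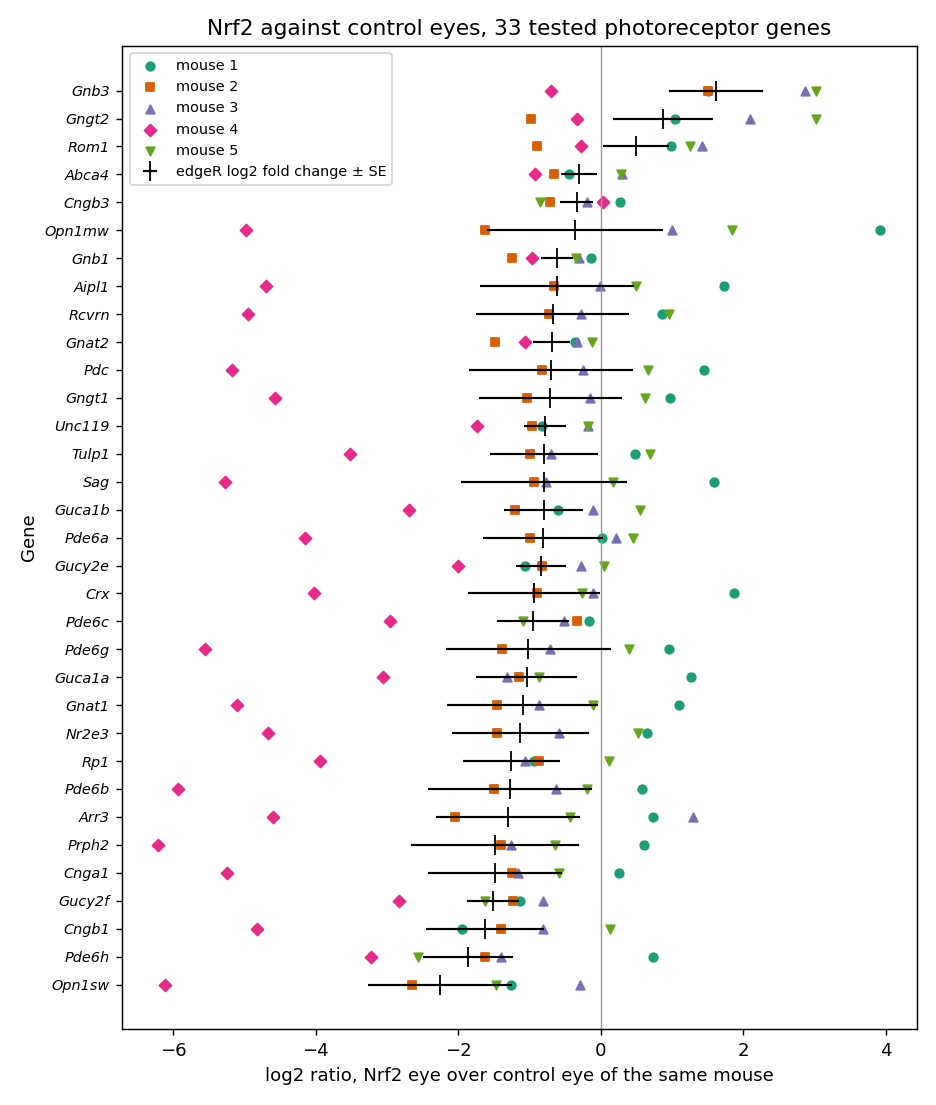
Log2 ratio of CPM (0.5 added to each count), Nrf2 eye over control eye, in each of 5 mice (coloured symbols) for the 33 tested genes. Black marks give the edgeR log2 fold change, and the black bars around them the SE of the within-mouse log2 CPM differences. Mouse 4 lies furthest to the left for most genes, at -5.10 for Gnat1 and -5.27 for Sag, while Gnb3, Gngt2 and Rom1 have positive fitted values.

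The control eye of mouse 2 stood out in other genes as well. In that library 23 of the 33 tested genes exceeded 10 times their median over the 10 libraries, which held for 9 of 9 rod genes, 4 of 9 cone genes and 10 of 15 of the rest. Of a separate list of 37 photoreceptor genes, 24 of 35 tested did so, against 162 of all 16362 tested genes, 0.990%. So did 4 of 8 tested bipolar markers, 3 of 7 amacrine and horizontal markers and 1 of 5 ganglion cell markers, and none of the 12 RPE, 12 Müller glia or 13 macrophage markers.

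On that separate list, 5 of 35 tested genes, 14.3%, were called between the eyes, all lower in Nrf2 eyes and lower in 5 of 5 mice, beside the shares of all genes given above. Nxnl1, the rod-derived cone viability factor, was at 30.9, 97.3, 38.3, 53.3 and 18.5 CPM in control eyes and 5.42, 34.0, 6.69, 3.74 and 3.34 CPM in Nrf2 eyes, with a log2 fold change of -2.54 (adjusted p = 0.00423, SE 0.37). Slc24a1, the rod exchanger of sodium, calcium and potassium, was at 459.8, 654, 425, 585 and 237 CPM in control eyes and 151, 188, 198, 121 and 73.8 CPM in Nrf2 eyes, with -1.71 (adjusted p = 0.00246, SE 0.20). Cdhr1, a photoreceptor cadherin, was at 235, 600.5, 208, 358 and 133 CPM in control eyes and 54.6, 214, 89.4, 44.4 and 38.1 CPM in Nrf2 eyes, with -1.93 (adjusted p = 0.00678, SE 0.32). The 3 genes were lower in the Nrf2 eye also of mice 1 and 5, where the rod sum was higher. They followed the amount of rod RNA only weakly. In the control eye of mouse 2, Nxnl1, Slc24a1 and Cdhr1 stood at 3.94, 3.01 and 3.53 times their median of the 10 libraries. The median of this ratio over the list was 31.7. In the control eye of mouse 1, Slc24a1 stood at 459.8 CPM where the rod sum was 28.2 CPM. The other 2 were Ppef2, a phosphatase (-1.69, adjusted p = 0.0226), and Kcnv2, a potassium channel subunit (-1.43, adjusted p = 0.0435). For these the ratio was 5.95 and 32.0. Leaving out 1 mouse at a time kept the calls of Nxnl1, Slc24a1 and Cdhr1, but Ppef2 was lost without mouse 2 (adjusted p = 0.0788), 3 (0.0752) or 5 (0.0568), and Kcnv2 without mouse 1 (0.103), 2 (0.158), 3 (0.0989) or 4 (0.0578).

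Without mice 2 and 4, Nxnl1 (-2.50, adjusted p = 0.0201), Cdhr1 (-1.71, adjusted p = 0.0462) and Slc24a1 (-1.46, adjusted p = 0.0462) were still called, and with the rod sum as a covariate they had -2.26, -1.68 and -1.54, with adjusted p-values of 0.0183, 0.0250 and 0.0118. The median log2 fold change over the list was -0.99 in all mice, -0.12 without mice 2 and 4 and -0.15 with the covariate, with 5, 3 and 5 genes called. Both of these alternatives were chosen after seeing the data, and mice 2 and 4 had the largest falls of the rod sum. The fit without a replicate block called 1. The highest value on the list was 0.43, for Cacna2d4, a calcium channel subunit. The summed RPE markers were lower in the same Nrf2 eyes, and their part in these calls was not tested.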

How the data were processed

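RNA was sequenced from RPE preparations of both eyes of 5 mice. Per the labels, the retina was removed, the eyecup cleaned, and RNA collected in RNAprotect, amplified with a full-length low-input kit and sequenced in 2 runs. The library titles share a date and pool code and show no run that differs between groups. The authors aligned reads to mm10 with STAR using Ensembl release annotation and counted reads per gene with featureCounts, and in parallel ran Salmon (0.8.2 per the labels). Which table was deposited, the strand setting and filters are not given in the sources used here. The table deposited by the authors holds whole-number read counts for each Ensembl gene, without normalization by the authors, for 47729 genes in 10 libraries. They were summed and scaled here to CPM. Without a stated strand setting, reads in exons shared by overlapping genes cannot be assigned with certainty.

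Symbols and exon lengths came from GENCODE M21 on the same build, in which 47224 identifiers had an entry. Genes that passed filterByExpr entered edgeR 4.0.16 under R 4.3.3 (TMM, quasi-likelihood F test, mouse as a block), with Benjamini-Hochberg adjustment over all 16362 genes and a threshold of 0.05. The SE is the SD of the 5 within-mouse log2 CPM differences (prior count 2) over the square root of 5. Pairing comes from the mouse number in the labels. Deviations from group means correlated at 0.19 to 0.71 between eyes of a mouse and at -0.42 to 0.28 between mice. A count of 0 allows up to 3 counts, 0.110 to 0.244 CPM by library. Floors and intervals cover counting error only. Sums, ratios and lists were described with no test. Alternatives were DESeq2 1.42.0, other scalings and filters, thinning to the smallest total, no block, leaving out each mouse, and, added after seeing the data, leaving out mice 2 and 4 and the rod sum as a covariate. All 35 genes could be named, and of the separate photoreceptor list those called and the highest and lowest. The members and lists were chosen with earlier results of these data known.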

Additional observations from a re-analysis of the deposited data

Results flagged for a closer look

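Within each group of 5 eyes, 80 sets of values were searched for a library standing apart. The values were each gene's CPM and the sums, taken on a log scale. The criterion was Dixon's, a gap over range above 0.710. On this scale the rod sum was not flagged, although the control eye of mouse 2 held 11693 CPM and the next highest control eye 1779 CPM. Chance gives about 4 such sets, and 7 were found, 6 of them in the Nrf2 eye of mouse 2 and 1 in the control eye of the same mouse. The Nrf2 eye of mouse 2 stood above the other Nrf2 eyes in the summed cone level (334 CPM), the summed level of the 15 genes of both or wider use (4939 CPM) and the inner retina markers (255 CPM). It also stood above them in Cnga1 (59.9 CPM), Gnb1 (1769 CPM) and Gucy2e (25.3 CPM). The control eye of mouse 2 stood apart in Gnb1 (4189 CPM). The sum of the 15 genes contains Gnb1 and Gucy2e, and all 7 sets come from the eyes of 1 mouse, so the sets are not independent.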

How the results depend on the processing

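Of all tested genes, edgeR with the mouse as a block called 1036. DESeq2 called 1812, fits that left out 1 mouse 584 to 857, the fit without mice 2 and 4 146 and that with the rod covariate 528. Of the 33 photoreceptor genes 1 was called; the unpaired fit (no replicate block) called 0, DESeq2 6, the fit with no filter on low counts 2, the thinned counts 0, and fits without 1 mouse 0 to 1. Mean rod to cone ratios of 6.84 in control and 3.63 in Nrf2 eyes became 7.91 and 9.35 without Gngt2 and Gnb3, and 12.3 and 17.1 when Gnat2 was also left out. Without mice 2 and 4, 13 negative log2 fold changes turned positive: Gnat1 0.019, Gngt1 0.47, Pde6a 0.24, Pde6g 0.20, Sag 0.30, Nr2e3 0.18, Arr3 0.45, Rcvrn 0.52, Pdc 0.58, Crx 0.34, Abca4 0.044, Aipl1 0.67 and Tulp1 0.18. Mice 2 and 4, left out after seeing the data, had the largest falls of the rod sum, so these signs follow in part from that choice. The rod covariate turned 6: Opn1mw 1.46, Rcvrn 0.50, Pdc 0.53, Crx 0.17, Aipl1 0.60 and Tulp1 0.076. DESeq2 turned Opn1mw to 0.34, and the fit without the block turned Rom1 to -0.052. Fits without 1 mouse ranged for Gngt1 from -1.13 to 0.059, for Opn1mw from -1.01 to 0.52, for Rcvrn from -1.21 to 0.16, for Pdc from -1.14 to 0.13 and for Aipl1 from -0.98 to 0.19, positive without mouse 4. The cause was not tested. The other alternatives, of scaling and filter, reversed no gene. Low counts limited Nrl and Cnga3.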
